A study of Danio rerio with 12 samples.

Results

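The pigment cell and melanin genes examined here are 10 genes chosen by name from the 32266 genes of the count table, *tyr*, *dct*, *tyrp1a*, *tyrp1b*, *pmela*, *slc24a5*, *oca2*, *mitfa*, *gch2* and *pnp4a*. Each symbol matched 1 identifier, and all 10 genes passed the filter on low counts. RNA-Seq libraries came from dissected heads of zebrafish larvae at 5 days post fertilization in the WIK background, 3 pools of 5 heads from rb1-/- homozygous mutants and 3 pools of 5 heads from wildtype +/+ larvae. The rb1-/- larvae carry a frameshift allele of *rb1* and, like the wild type, came from an incross of heterozygous adults, and the head was cut from the trunk through the hindbrain before genotyping. Whole heads hold skin, eye, brain and skeletal tissue as well as pigment cells, so a pigment gene is measured against all of that RNA, and fewer cells of a type cannot be told apart from less RNA per cell.

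Zebrafish larvae have 3 kinds of neural crest pigment cell. Black melanophores make melanin in melanosomes, yellow xanthophores make pteridines and take up carotenoids, and iridophores reflect light from stacked guanine crystals. Melanin is also made outside the neural crest, in the retinal pigment epithelium behind the photoreceptors, so a head library reads melanin genes from both sources. Tyrosinase starts melanin synthesis, Dct and the Tyrp1 proteins act further along the pathway, and Pmel forms the fibrils on which melanin is laid down. Mitf is the transcription factor that directs the melanocyte program, and in zebrafish the *mitfa* copy is needed for melanophores of the neural crest but not for the pigmented retina.

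The libraries held between 41065256 and 47700950 counts on genes after both lanes of a library were summed. Between 0.0209% and 0.0245% of these counts fell on the 10 pigment genes. The targeted gene *rb1* was at 11.6, 9.84 and 9.52 CPM (counts scaled to library size by the TMM method) in mutant pools 1, 2 and 3, and at 26.8, 20.8 and 18.4 in wild-type pools 1, 2 and 3 (log2 fold change -1.09, edgeR adjusted p = 0.0121, but 0.00614 under a replicate block of pool number), and the groups did not overlap. Markers of head tissue were present in every library. The summed CPM of 4 neuronal markers ran from 1505 to 2042 in the mutant and from 1666 to 1880 in the wild type, and that of 3 glial markers from 918 to 1298 and from 1151 to 1246. Their log2 fold changes ran from -0.19 (*snap25a*) to 0.20 (*elavl4*) and from -0.16 (*slc1a2b*) to 0.16 (*fabp7a*), and none passed a threshold. Summed levels did not overlap for skin and photoreceptors. The 4 skin markers summed to between 8755 and 11255 CPM in the mutant and between 12602 and 14900 in the wild type, and the 4 photoreceptor markers to between 3962 and 4594 and between 5588 and 7339. The largest part of each sum was 1 gene. *krt4* was at 6263 to 7903 CPM in the mutant and 9047 to 11164 in the wild type, and *rho* at 2504 to 2581 and 3726 to 4724. In each list 2 of the 4 markers lay lower in every mutant library, against 13.2% of all genes tested, and the rest overlapped. Of the photoreceptor genes, *rho*, which encodes rod opsin, and *gnat1*, which encodes the rod transducin subunit, fell at an adjusted p of at most 0.05 (log2 fold changes -0.69 and -0.74, adjusted p = 0.0161 and 0.0195 from edgeR), and held that call in 4 and 3 of 6 fits with a library left out. Over all genes tested, 2.17% were lower at an adjusted p of at most 0.05. Among the 4 skin markers none was called, and the skin keratin gene *krt4* was at -0.47 (adjusted p = 0.0747). The highest of each list were *gnat2* of cones (-0.30) and *cdh1*, the E-cadherin gene (-0.06). Among 5 macrophage markers, summed at 408 to 646 CPM in the mutant and 494 to 619 CPM in the wild type, the complement gene *c1qb* was called lower (-1.59, adjusted p = 0.0374 from edgeR, and 0.0526 with the block, and in 0 of 6 fits with a library left out) at a mean under 1 CPM, and *mpeg1.1* was highest (0.66, adjusted p = 0.0641, and 0.0224 with the block), with the apolipoprotein gene *apoeb* the lowest at 1 CPM or more (-0.21). No marker of these lists was at 0 in any library, and the part of these differences in the pigment results was not tested.

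In the rb1-/- heads none of the 10 pigment genes passed either threshold in edgeR's quasi-likelihood test. The first threshold was an adjusted p of at most 0.01 with a change of at least 1.5-fold, and the second was an adjusted p of at most 0.05 alone. Over all 22753 genes tested, 1.18% passed the first and 5.99% the second. At an unadjusted p under 0.05, 2 of the pigment genes were higher (*gch2* and *mitfa*) and 1 was lower (*dct*), and over all genes tested 12.8% were higher and 10.5% lower. The median log2 fold change of the 10 genes was -0.17, against -0.01 over all genes tested. All 3 mutant libraries lay above all 3 wild-type libraries for 2 genes and below them for 2, and over all genes tested 29.2% did not overlap, 16.1% lying above and 13.2% below. With DESeq2 on the same counts 1 of the 10, *gch2*, passed both thresholds, which 4.83% and 11.7% of all genes passed with that tool.

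**Figure D1:**
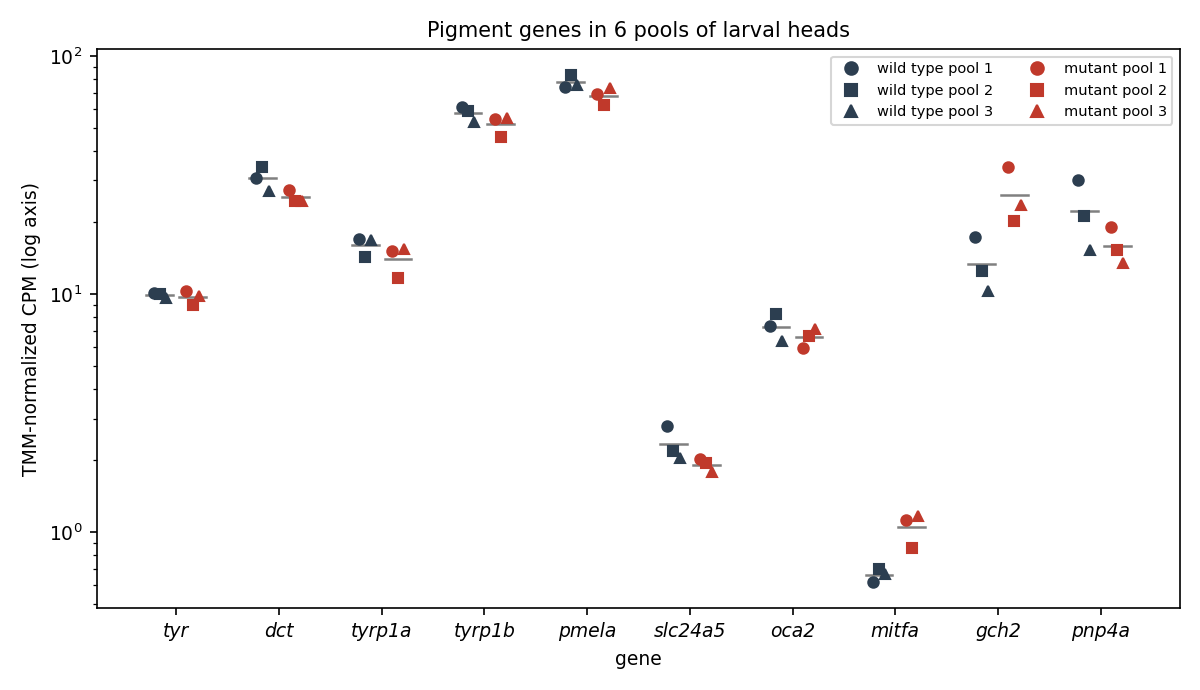
TMM-normalized CPM of the 10 pigment genes on a log axis, 1 point per library, with wild-type pools in dark blue, mutant pools in red, a marker shape for each pool number and a grey line at each group mean. The red points of *gch2* and *mitfa* lie above the blue points, those of *pmela* and *slc24a5* lie just below them, and the other 6 genes overlap.

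The levels of the pigment genes are compared with one another on the authors' FPKM, which divides by exonic length. In the wild type *tyrp1b* had the highest level at 28.5 ± 1.91 FPKM (SD, n = 3), followed by *pmela* at 24.0 ± 1.47 (SD, n = 3) and *dct* at 15.8 ± 1.70 (SD, n = 3). The iridophore gene *pnp4a* came next at 12.3 ± 4.06 FPKM (SD, n = 3), and its range overlapped that of *dct*. The levels of *tyrp1a* (7.17 ± 0.725 FPKM, SD, n = 3) and *gch2* (6.78 ± 1.81 FPKM, SD, n = 3) also overlapped. Below them lay *tyr* at 4.97 ± 0.0816 FPKM (SD, n = 3), then *oca2* at 1.24 ± 0.149 and *slc24a5* at 1.15 ± 0.188 (SD, n = 3 for each), whose ranges overlapped. The regulator *mitfa* had the lowest level of the 10, 0.284 ± 0.0186 FPKM (SD, n = 3). In the mutant the order was the same except that *gch2*, at 13.7 ± 3.89 FPKM (SD, n = 3), stood between *dct* and *pnp4a* and overlapped both. The genes that encode the melanin enzymes thus differed several-fold among themselves, and *tyr*, which encodes the enzyme that starts the pathway, was at a lower level than *dct* and both *tyrp1* genes in every library.

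Among the melanin enzymes, *tyr* (ENSDARG00000039077), which encodes tyrosinase, was at 10.2, 8.98 and 9.81 CPM in mutant pools 1, 2 and 3 and at 10.1, 9.96 and 9.62 CPM in wild-type pools 1, 2 and 3. The ranges overlapped, and the log2 fold change was -0.03 (standard error 0.10, 95% interval -0.27 to 0.21, adjusted p = 0.903 from edgeR). Its sign turned when mutant pool 2, the lowest library, was left out (0.02). The gene for dopachrome tautomerase, *dct* (ENSDARG00000006008), was at 27.3, 24.5 and 24.6 CPM in the mutant pools and at 30.8, 34.0 and 27.0 CPM in the wild-type pools. Only mutant pool 1 reached into the wild-type range, just above wild-type pool 3. The log2 fold change of *dct* was -0.26 (standard error 0.11, 95% interval -0.52 to -0.01, adjusted p = 0.203 from edgeR).

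The paralogs *tyrp1a* and *tyrp1b* encode tyrosinase-related proteins. *tyrp1b* (ENSDARG00000056151) was at 54.2, 45.9 and 54.6 CPM in the mutant pools and at 60.8, 58.6 and 52.6 CPM in the wild-type pools. *tyrp1a* (ENSDARG00000029204) was at 15.1, 11.7 and 15.5 CPM in the mutant pools and at 17.1, 14.3 and 16.8 CPM in the wild-type pools. Both overlapped between the genotypes, with log2 fold changes of -0.15 for *tyrp1b* (95% interval -0.40 to 0.09, adjusted p = 0.434 from edgeR) and -0.19 for *tyrp1a* (95% interval -0.51 to 0.14, adjusted p = 0.472). Mutant pool 2 was the lowest of the 6 libraries for both paralogs. Their log2 ratio within a library, *tyrp1b* to *tyrp1a*, averaged 1.88 ± 0.0820 in mutant pools and 1.84 ± 0.195 in wild-type pools (SD, n = 3 each), which differ by 0.04 (two-sided exact permutation test, p = 0.9, adjusted p = 0.9 over the 4 gene pairs compared). The sign of that difference turned without mutant pool 2 (-0.01) and without wild-type pool 3 (-0.06).

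Of the melanosome genes, *pmela* (ENSDARG00000091298), which encodes the fibril protein of the melanosome, was at 69.0, 62.2 and 73.2 CPM in the mutant pools and at 73.9, 83.4 and 75.4 CPM in the wild-type pools. The groups did not overlap, but the gap between mutant pool 3 and wild-type pool 1 was small, and the log2 fold change was -0.19 (95% interval -0.42 to 0.04, adjusted p = 0.302 from edgeR). The cation exchanger gene *slc24a5* (ENSDARG00000024771), mutated in golden zebrafish, was at 2.02, 1.94 and 1.78 CPM in the mutant pools and at 2.79, 2.20 and 2.04 CPM in the wild-type pools. All mutant pools were again below all wild-type pools, with a log2 fold change of -0.29 (95% interval -0.70 to 0.12, adjusted p = 0.370 from edgeR). The membrane protein gene *oca2* (ENSDARG00000061303), mutated in an inherited albinism of humans, overlapped between 5.94 to 7.15 CPM in the mutant and 6.36 to 8.21 CPM in the wild type (log2 fold change -0.15, 95% interval -0.47 to 0.18, adjusted p = 0.587 from edgeR).

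The 7 melanin genes (the 4 enzyme and 3 melanosome genes) all had negative log2 fold changes, between -0.29 and -0.03, and none passed a threshold. Over all 22753 genes tested, 11783 had negative log2 fold changes. Their 95% intervals reached from 0.616 times to 1.16 times the wild-type level, the lower bound being that of *slc24a5* and the upper that of *tyr*. With pool number as a replicate block their adjusted p ran from 0.153 to 0.874 (edgeR). Across the 6 libraries the 7 genes moved loosely together. The Pearson correlation of log2(CPM + 1) was above zero in 20 of their 21 pairs, with a median of 0.58 and a highest value of 0.85 between *tyr* and *tyrp1b*. These values are over 6 libraries of both genotypes, so that any difference between the genotypes is part of them. Mutant pool 2 was the lowest library for *tyr*, *dct*, *tyrp1a*, *tyrp1b* and *pmela*, but not for *slc24a5* and *oca2*. How often pairs of unrelated genes correlate above zero over these libraries was not tested.

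**Figure D2:**
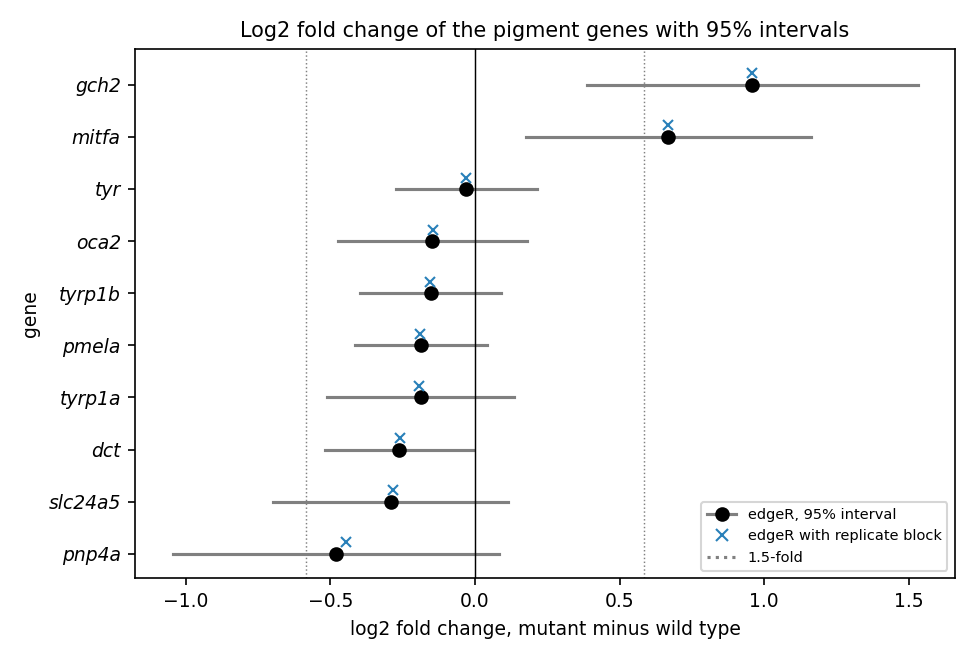
Log2 fold change (mutant minus wild type) of the 10 pigment genes from edgeR, with black points and grey 95% intervals that are not adjusted for multiple tests, blue crosses for the fit with pool number as a replicate block, and dotted lines at 1.5-fold. The intervals of *gch2* and *mitfa* lie above zero, that of *dct* ends just below zero, and the other 7 cross it.

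The regulator *mitfa* (ENSDARG00000003732) had few reads, 55, 43 and 52 counts in the mutant pools and 28, 28 and 30 in the wild-type pools. This corresponds to 1.12, 0.862 and 1.17 CPM in the mutant and 0.615, 0.701 and 0.667 CPM in the wild type, and every mutant pool was above every wild-type pool. The estimate was 1.59-fold higher, 0.67 on the log2 scale (SE 0.21, 95% interval 0.18 to 1.16), and the edgeR adjusted p of 0.110 passed neither threshold. The log2 ratio of *dct* to *mitfa* within a library averaged 4.61 ± 0.221 in mutant pools and 5.53 ± 0.165 in wild-type pools (SD, n = 3 each). The ratio was lower in every mutant library by a mean of 0.92 on the log2 scale (p = 0.1 by a two-sided exact permutation test, whose floor with 3 libraries a side is the same value, adjusted p = 0.133 over the 4 pairs). The paralog *mitfb*, which is expressed in the pigmented retina and was singled out after its values were seen, lay the other way. It was at 0.633, 1.06 and 0.677 CPM in the mutant pools and between 1.16 and 1.21 CPM in the wild-type pools (log2 fold change -0.58, edgeR adjusted p = 0.201).

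The pteridine gene *gch2* (ENSDARG00000099101) had the largest positive difference of the 10. It encodes a GTP cyclohydrolase, which starts pteridine synthesis in xanthophores. *gch2* was at 34.3, 20.2 and 23.6 CPM in mutant pools 1, 2 and 3 and at 17.4, 12.5 and 10.3 CPM in wild-type pools 1, 2 and 3. Every mutant pool was above every wild-type pool, and pool 1 was the highest of its genotype in both. Mutant pools averaged 26.0 ± 7.33 CPM and wild-type pools 13.4 ± 3.63 CPM (SD, n = 3 each), which is 1.94-fold higher or 0.96 on the log2 scale (SE 0.25, 95% interval 0.39 to 1.53, adjusted p = 0.0651 from edgeR). The adjusted p fell to 0.0123 with pool number as a replicate block (edgeR), which passes the second threshold, and to 0.00281 with DESeq2. Leaving out mutant pool 2 or wild-type pool 1 gave an adjusted p of 0.0422 or 0.0491 (edgeR), and over all 6 such fits it ran from 0.0422 to 0.225, with log2 fold changes from 0.71 to 1.19.

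Of the other genes of pteridine synthesis and xanthophores, *spra*, which encodes sepiapterin reductase and acts after the cyclohydrolase, was the only one of 16 to pass the second threshold, and none passed the first. Over all genes tested, 5.99% passed the second and 1.18% the first. *spra* was at 9.17, 7.80 and 8.62 CPM in the mutant pools and at 5.71, 4.33 and 4.98 CPM in the wild-type pools. The groups did not overlap, and the level rose 1.70-fold, 0.77 on the log2 scale (SE 0.14, edgeR adjusted p = 0.0251). With a library left out its adjusted p was at most 0.05 in 3 of 6 fits and ran up to 0.127. At the other end *xdh*, which encodes xanthine dehydrogenase, was at 35.1, 12.9 and 39.7 CPM in the mutant pools and at 51.6, 52.8 and 59.7 CPM in the wild-type pools. Mutant pool 2 stood far below the rest, and the log2 fold change was -0.91 (standard error 0.36, adjusted p = 0.177 from edgeR). The list had a median log2 fold change of -0.12, with 4 genes higher and 12 lower.

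The markers of xanthophores passed neither threshold. The log2 fold change was 0.28 for *aox5*, an aldehyde oxidase gene (adjusted p = 0.363 from edgeR), 0.17 for *csf1ra*, a receptor gene that macrophages also express and that stands in the macrophage list too (adjusted p = 0.404), and -0.34 for *pax7a*, a transcription factor gene also active in the brain (adjusted p = 0.537). The paralog *gch1*, singled out after its values were seen, also encodes a GTP cyclohydrolase, which starts the synthesis of a cofactor used in monoamine synthesis. It was at 17.7, 17.6 and 21.7 CPM in the mutant pools and at 25.1, 29.0 and 31.1 CPM in the wild-type pools, lower in the mutant without overlap (log2 fold change -0.58, standard error 0.13, adjusted p = 0.0398 from edgeR). Of all genes tested, 13.2% were lower without overlap. The call of *gch1* with a library left out is not given here. The 2 cyclohydrolase genes thus lay on opposite sides of zero. The difference between them was not tested.

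The iridophore gene *pnp4a* (ENSDARG00000057575), which encodes a purine nucleoside phosphorylase and labels iridophores, was at 19.0, 15.4 and 13.4 CPM in mutant pools 1, 2 and 3 and at 30.1, 21.3 and 15.4 CPM in wild-type pools 1, 2 and 3. The groups overlapped, but within each pool number the mutant was the lower library. The log2 fold change was -0.48 (standard error 0.24, 95% interval -1.05 to 0.08, edgeR adjusted p = 0.283), and leaving out 1 library moved it between -0.69 and -0.20. The log2 ratio of *pnp4a* to *gch2* averaged -0.69 ± 0.253 in mutant pools and 0.71 ± 0.122 in wild-type pools (SD, n = 3 each). It was thus above zero in every wild-type library and below zero in every mutant library, a difference of -1.40 (two-sided exact permutation test, p = 0.1, adjusted p = 0.133 over the 4 pairs).

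**Figure D3:**
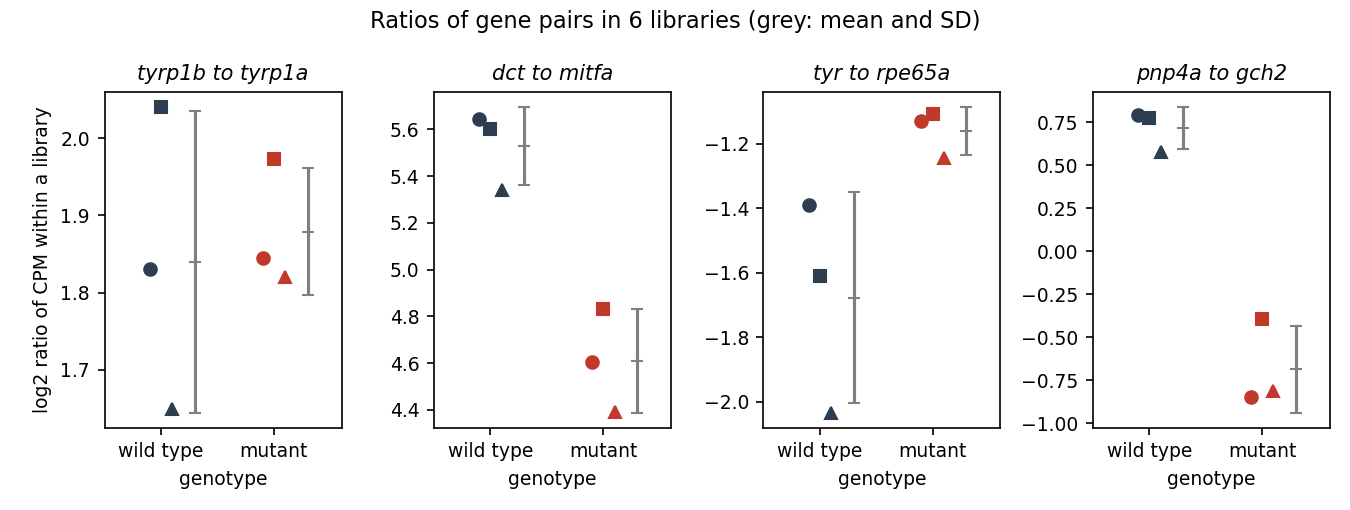
Log2 ratio of CPM of 4 gene pairs within each library, with wild-type pools in dark blue, mutant pools in red, marker shapes for pools 1 (circle), 2 (square) and 3 (triangle), and the mean and SD of each genotype in grey. The genotypes overlap for *tyrp1b* to *tyrp1a* and separate for the other 3 pairs, with *pnp4a* to *gch2* changing sign; each vertical axis has its own range.

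Of 11 other genes listed for iridophores, 1 fell at the first threshold, against 0.286% of all genes tested. This was *pnp5a*, named as another purine nucleoside phosphorylase, which was at 73.6, 84.4 and 61.8 CPM in the mutant pools and at 187.4, 279.2 and 205.7 CPM in the wild-type pools. It was 3.06-fold lower in the mutant, -1.61 on the log2 scale (SE 0.18, edgeR adjusted p = 0.00439), and with a library left out the adjusted p ran from 0.00587 to 0.0307. The wild-type mean of *pnp5a* was 71.3 FPKM, against 12.3 FPKM for *pnp4a*. How much of the reads of *pnp5a*, or of the rest of this list, came from iridophores was not tested, since the libraries are of whole heads. The receptor genes *ltk* (-0.19) and *ednrba* (0.01) and the transcription factor gene *tfec* (0.41), which mark iridophores, passed neither threshold (log2 fold change in parentheses), with adjusted p of 0.260, 0.983 and 0.237 (edgeR). For 4 of the 11 genes every mutant library lay below every wild-type library, and for 0 above, against 13.2% and 16.1% of all genes tested. Besides *pnp5a* and *ltk* the 4 included *gpnmb* (-0.51, edgeR adjusted p = 0.0985, but 0.0328 under the replicate block). For *pnp4b* the groups overlapped (-0.82, edgeR adjusted p = 0.305). The summed CPM of the list was 255 to 288 in the mutant and 446 to 526 in the wild type, and without *pnp5a*, which made up most of that gap, 170.3 to 226 and 239.9 to 273. Its median log2 fold change was -0.19, with 4 genes higher and 7 lower. Among 15 genes of purine synthesis, which serves every dividing cell as well as iridophores, 2 rose at the second threshold and none fell. Whether these rises lay in iridophores, in dividing cells or in other tissue of the head was not tested. Over all genes tested, 3.82% rose and 2.17% fell at that threshold. The 2 that rose were *prps1b*, a phosphoribosyl pyrophosphate synthetase gene (log2 fold change 0.56, adjusted p = 0.0225 from edgeR), and *adssl*, an adenylosuccinate synthase gene (0.68, adjusted p = 0.0343). Each held that call in 3 of 6 fits with a library left out, with an adjusted p of up to 0.122 and 0.162. The other adenylosuccinate synthase gene of the list, *adss*, was at -0.03 (adjusted p = 0.925 from edgeR). The lowest of that list was *impdh1a*, which encodes an IMP dehydrogenase (-0.19, adjusted p = 0.557), and the median of the 15 was 0.00.

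Other genes of melanosomes and their transport were read from a further list. Of 28 listed, 24 were in the table and 23 were tested, and none passed either threshold. At an unadjusted p under 0.05, 2 were lower and none was higher, a share of the list near the 10.5% lower among all genes, and the median log2 fold change was -0.07. The lowest was *slc45a2*, the transporter gene mutated in albino zebrafish, at 8.74, 7.43 and 9.63 CPM in the mutant pools and 12.7, 12.7 and 10.7 CPM in the wild-type pools. Its log2 fold change was -0.48 (standard error 0.14, adjusted p = 0.0827 from edgeR), and the groups did not overlap. The highest was *hps3*, which encodes a subunit of a complex for lysosome-related organelles (log2 fold change 0.28, adjusted p = 0.272 from edgeR).

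The regulators of neural crest and pigment cell fate gave no call among the 9 tested of 11. They ran from *mc1r*, the melanocortin receptor gene of melanocytes (log2 fold change -0.43, adjusted p = 0.430 from edgeR), to *tfap2a*, a transcription factor gene of the neural crest and the skin (0.13, adjusted p = 0.479), among genes with at least 1 CPM. *kita*, the receptor gene that melanophores need to migrate and survive, was at -0.15 (adjusted p = 0.470 from edgeR). Among 7 genes for hormones that move or antagonise melanosome pigment and their receptors, 1 fell at the second threshold, 6 of 7 had negative log2 fold changes and the median was -0.55. Over all 22753 genes tested, 2.17% fell at that threshold, 11783 had negative log2 fold changes and the median was -0.01. The called gene was the agouti family gene *asip2b*, at 33.3, 34.5 and 40.2 CPM in the mutant pools and 49.4, 58.3 and 50.3 CPM in the wild-type pools (log2 fold change -0.55, standard error 0.11, adjusted p = 0.0323 from edgeR). It held an adjusted p of at most 0.05 in 1 of 6 fits with a library left out. The gene for melanin-concentrating hormone, *pmch*, was lowest of the list at -1.06 (edgeR adjusted p = 0.106, but 0.0318 under the replicate block), on 38 to 63 counts in the mutant and 56 to 130 in the wild type. The pro-opiomelanocortin gene *pomca* was highest at 0.09 (adjusted p = 0.865 from edgeR).

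The retinal pigment epithelium, the other source of melanin in the head, was read from 8 marker genes. Their summed level was between 114.9 and 126.9 CPM in the mutant and between 139.4 and 162.0 CPM in the wild type, no marker was at 0, and 7 of the 8 had negative log2 fold changes, with a median of -0.51. Of the 8 markers, 5 lay lower in every mutant library, against 13.2% of all genes tested. Among these was *rlbp1b* (log2 fold change -0.47, edgeR adjusted p = 0.106). Whether its reads came from this epithelium or from other retinal cells was not tested. The retinol dehydrogenase gene *rdh5*, which acts in the visual cycle, fell at the first threshold, against 0.286% of all genes tested. It was at 4.08, 3.55 and 4.02 CPM in the mutant pools and at 7.56, 8.13 and 7.98 CPM in the wild-type pools (2.03-fold lower, log2 fold change -1.02, SE 0.12, edgeR adjusted p = 0.00548, but 0.0118 under the replicate block). With a library left out its adjusted p ran from 0.0109 to 0.0429. The retinol uptake receptor gene *stra6* fell at the second threshold only (log2 fold change -0.56, adjusted p = 0.0388 from edgeR), and in 1 of 6 fits with a library left out. Over all genes tested, 2.17% fell at the second threshold. The retinoid isomerase gene *rpe65a* was at -0.56 (edgeR adjusted p = 0.0806, but 0.0479 under the replicate block), and *otx2*, a transcription factor gene shared with the brain, had the smallest difference of the markers at 1 CPM or more (-0.06, adjusted p = 0.790).

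Tyrosinase and the retinoid isomerase were also compared within each library. The log2 ratio of *tyr* to *rpe65a* was -1.13, -1.11 and -1.24 in mutant pools 1, 2 and 3 and -1.39, -1.61 and -2.03 in wild-type pools 1, 2 and 3. The mutant values all exceeded the wild-type values, by a mean of 0.52 (two-sided exact permutation test, p = 0.1, adjusted p = 0.133 over the 4 pairs). *rpe65a* itself was at 22.4, 19.4 and 23.3 CPM in the mutant pools and at 26.3, 30.4 and 39.4 CPM in the wild-type pools. The share of the *tyr* reads that came from the eye was not tested, since the libraries are of whole heads.

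**Figure D4:**
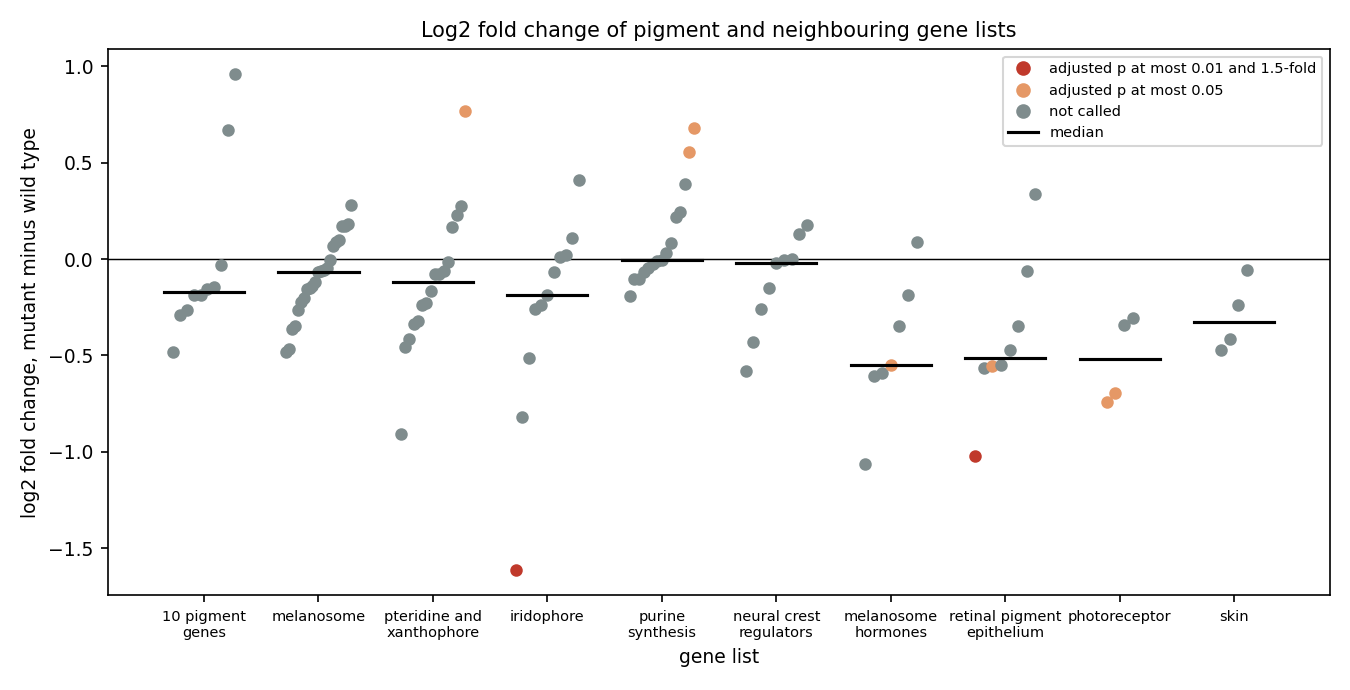
Log2 fold change (mutant minus wild type, edgeR) of each tested gene in the 10 pigment genes and in 9 other lists, with red points past an adjusted p of 0.01 and 1.5-fold, orange points past an adjusted p of 0.05, grey points past neither and a black line at each list's median. The melanosome genes cluster near zero (median -0.07), the melanosome hormone genes (median -0.55) and retinal pigment epithelium markers (median -0.51) lie lower, and the red points are *pnp5a* and *rdh5*.

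Over the 7 lists of other pigment genes and retinal pigment epithelium markers together, 89 genes were tested. At the first threshold 0 were higher and 2 lower, against 0.897% and 0.286% of all genes tested, and at the second 3 were higher and 4 lower, against 3.82% and 2.17%. At an unadjusted p under 0.05 in edgeR, 3 were higher and 14 lower, against 12.8% and 10.5% of all genes. DESeq2 on the same counts called 2 higher and 2 lower at the first threshold, against 2.84% and 1.99% of all genes, and 3 higher and 9 lower at the second, against 6.43% and 5.27%. The median log2 fold change of the 89 genes was -0.08, against -0.01 over all genes tested.

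The genes whose profile was most like the mean standardized profile of the 10 pigment genes over the 6 libraries were *lpar6b* (Pearson r = 0.990), *stx8* (0.985), *gltpa* (0.983), *nfe2l2b* (0.981) and *inpp5b* (0.979). Of 20005 genes with a mean of at least 1 CPM, 37 had a correlation of at least 0.95 with that profile, which rests on only 6 libraries. How many unrelated genes would reach that value was not tested, so the named genes are a ranking only. The profile also averages members that moved in opposite ways. Correlations among the 10 ran from -0.73 to 0.96, and 30 of 45 were above zero. Within the 10, *mitfa* and *gch2*, the genes higher in the mutant, correlated with each other (0.82), and *slc24a5* was closest to *pnp4a* (0.96). Both values are over libraries of both genotypes, so any difference between the genotypes is part of them.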

How the data were processed

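RNA-Seq libraries of 6 pools of larval heads, each sequenced in 2 lanes, were analysed. The authors aligned single-end reads to GRCz10 with GSNAP, counted uniquely aligned reads per gene with HTSeq and deposited raw counts for 12 lane columns. The strand setting of the counting was not given in the sources used here, so overlapping genes and close paralogs are uncertain. The authors also deposited FPKM values, computed from the counts and exonic lengths of their annotation. These were used only to compare levels between genes, as the mean of both lanes. The deposited table of the authors' own DESeq2 comparison (mean count, log2 fold change, standard error, statistic and p-values) was not used.

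Counts of both lanes were summed, since the lanes agreed within sampling noise (chi-square over degrees of freedom 0.991 to 1.01), and n is 3 for each genotype. The quasi-likelihood test of edgeR 4.0.16 (R 4.3.3) was fitted with genotype alone after TMM normalization and the default filter on low counts, and p-values were adjusted by Benjamini-Hochberg over the 22753 of 32266 genes that passed. The first threshold of the report is that of the study's methods. Standard errors are the log2 fold change divided by the square root of F. DESeq2 1.42.0 was an alternative, as were DESeq2 size factors, no filter, a replicate block and leaving out each library. The fits were tested on simulated data. Ratios of 4 gene pairs were compared with exact permutation tests. The larvae came from an incross of heterozygous adults, described in the study's text as a single pair, so the pools are of siblings and p-values measure only the spread between these pools.

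The pool number is shared between genotypes in the sample titles. Deviations from the group means were correlated between pools of the same number (across genes, 0.410, 0.431 and 0.281), although the larvae differ, so the fit with pool number as a replicate block is given where it changed a call. The genes named are the 10 members, *rb1*, the called genes and the highest and lowest gene of each list (at least 1 CPM), and the 5 genes most like the members. *rpe65a* is named for its ratio. *kita*, *ltk*, *ednrba*, *gpnmb*, *pnp4b*, *aox5*, *csf1ra*, *pax7a*, *mitfb*, *gch1*, *sox10*, *rlbp1b*, *adss*, *foxd3*, *crestin* and *ednrbb* fall outside that rule and were named after their values were seen. The members and lists were chosen with earlier results of these data known. No sequences or coordinates are given.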

Additional observations from a re-analysis of the deposited data

How the results depend on the processing

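None of the 10 pigment genes passed the first threshold under DESeq2 size factors, without the filter on low counts, with the replicate block or with any library left out (edgeR), and 1 (*gch2*) did with DESeq2. At the second threshold 1 passed with DESeq2 and 1 with the replicate block, and between 0 and 1 with a library left out, in each case *gch2*. Of 100 refits of single pigment genes, 95 kept their sign and side of an adjusted p of 0.05, 4 (all *gch2*) moved past it, and 1 turned sign (*tyr* without mutant pool 2, 0.023, in a range from -0.072 to 0.023 with a library left out). The replicate block changed the call of no other pigment gene among the 10, and among the other listed genes it ended that of *rdh5* at the first threshold and of *c1qb* at the second, where it added *gpnmb*, *pmch*, *rpe65a* and *mpeg1.1*. It also brought *rb1* past the first threshold. Of the other pigment genes, 2 were called by edgeR, 4 with DESeq2, 1 with the replicate block and between 0 and 1 with a library left out. At the second threshold the counts were 7, 12 with DESeq2 and between 2 and 8 with a library left out. Over all genes, 269 were called, 1099 with DESeq2 and between 1 and 219 with a library left out, the lowest counts being 1 and 3 without wild-type pool 3 or 2. At the second threshold these counts were 1363, 2663, and between 214 and 1610, and 2078 with the replicate block. The difference in the log2 ratio of *tyrp1b* to *tyrp1a* ran from -0.056 to 0.14 with a library left out and turned sign without mutant pool 2 (-0.01) or wild-type pool 3 (-0.056). Those of *dct* to *mitfa* (-1.03 to -0.81), *tyr* to *rpe65a* (0.34 to 0.66) and *pnp4a* to *gch2* (-1.55 to -1.32) kept their signs, and over same-numbered pairs each gave p = 0.25 in an exact sign-flip permutation test, the smallest that 3 pairs allow. The causes were not tested. Each genotype had 3 pools, and *mitfa* had 28 to 55 counts per library.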

Other observations

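The neural crest genes *foxd3*, *crestin* and *ednrbb* were near the floor of detection at this stage. Some other genes of the same list were well above it, with *sox10* at 30.5 to 34.2 CPM and *tfap2a* at 147 to 182 CPM across all libraries. *foxd3* had 1 count in mutant pool 3 and 1 in wild-type pool 3 and none in the other 4 libraries. For *crestin* the counts were 23, 14 and 3 in the mutant and 21, 7 and 4 in the wild type (pools 1, 2 and 3), with pool 1 the highest of both genotypes, as it was for *gch2* and *pnp4a*. The endothelin receptor gene *ednrbb* had 7, 8 and 7 counts in the mutant pools and 13, 14 and 9 in the wild-type pools, and it did not pass the filter on low counts.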
